A study of Dimocarpus longan with 9 samples.

Results

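WRKY genes encode plant transcription factors that share a DNA-binding domain with a zinc finger and bind a promoter element called the W-box. In model plants such as Arabidopsis, many of them act downstream of immune receptors and MAP kinase cascades and switch defence genes on or off, and others take part in leaf senescence, in the development of root hairs, trichomes and seed coat, and in responses to drought and salt. In longan (*Dimocarpus longan*), the study's list of transcription factors holds 58 genes of type WRKY. Of these, 57 were found by their identifier in the deposited table of 30014 genes, and Dlo_027246.1 was not. These 57 genes are described here across the tissues of the plant.

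The RNA came from 9 tissues of the cultivar “SJM” (labelled sijimi), a longan that flowers and fruits throughout the year. They were the vegetative organs root, stem and leaf, the flower bud and flower, the young fruit, and the pericarp (peel), pulp and seed of the fruit. Each tissue was sequenced as 1 library with no treatment, so there are no replicates, no test between tissues is given, and every difference below compares 2 libraries. The leaves were mature, and the number of trees behind a library was not found in the sources used. The labels and the study's account of its libraries name stem, whereas its methods list mature fruit and no stem. The labels were followed, so stem below means the library labelled stem. Levels are in FPKM, a fragment density normalized for gene length and library size, which allows genes of different length to be compared.

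The summed FPKM of the table was between 884470 (leaf) and 1011820 (root). FPKM holds no counts, and the step size of low values gave a depth relative to root of -0.12 (pulp) to 0.54 (leaf) on the log2 scale. Pulp had 19322 genes above 0 FPKM, and the other libraries had 21267 to 23118. The tissue labels were checked with the few genes the study annotates. The 6 YABBY type genes act in lateral organs of the shoot. They summed to 5.33 FPKM in root and to between 72.5 and 568 FPKM in the other 8 tissues. By gene, root alone was lowest only for Dlo_010752.1, which had 273.8 FPKM in pulp, and for Dlo_027352.1. Dlo_019359.1 had 2.24 FPKM in root and 0 in young fruit, pericarp and pulp. Dlo_023494.1 had 0.28 FPKM in root and 0 in pulp. Dlo_018599.1 and Dlo_026074.1 were at 0 in root and also in several other tissues. The LFY type gene (1.09 FPKM) and the NOZZLE type gene (2.07 FPKM), which act in early flower development, were highest in flower bud but low there. The 2 photosynthesis genes tested did not set leaf apart, since the psbP gene had 115 FPKM in leaf and 123 FPKM in seed, and the gene for light-harvesting protein 3 had 1.5 FPKM in leaf and 16.7 FPKM in seed.

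WRKY transcripts were plentiful in the shoot, flower and fruit peel and scarce in pulp and seed. The summed level of the 57 genes was 6892 FPKM in pericarp, 5642 in leaf, 5315 in stem, 4803 in young fruit and 4699 in flower. Flower bud had 3045 FPKM, root 1628, seed 842 and pulp 543. The sum in pericarp was thus 12.7 times that in pulp and 8.18 times that in seed, while for the 1472 other transcription factor genes of the study's list the same ratios were 1.99 and 2.02. WRKY genes made up 9.32% of the FPKM of all transcription factor genes in pericarp, 9.25% in leaf, 8.81% in stem and 8.66% in young fruit. The share was 7.98% in flower, 5.5% in flower bud, 4.47% in root, 2.47% in seed and 1.59% in pulp. In bulk tissue, fewer cells of a type and less RNA per cell cannot be told apart. Pulp was also the library with the lowest depth and the fewest genes above 0, and the part of these in the result was not tested.

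**Figure D1:**
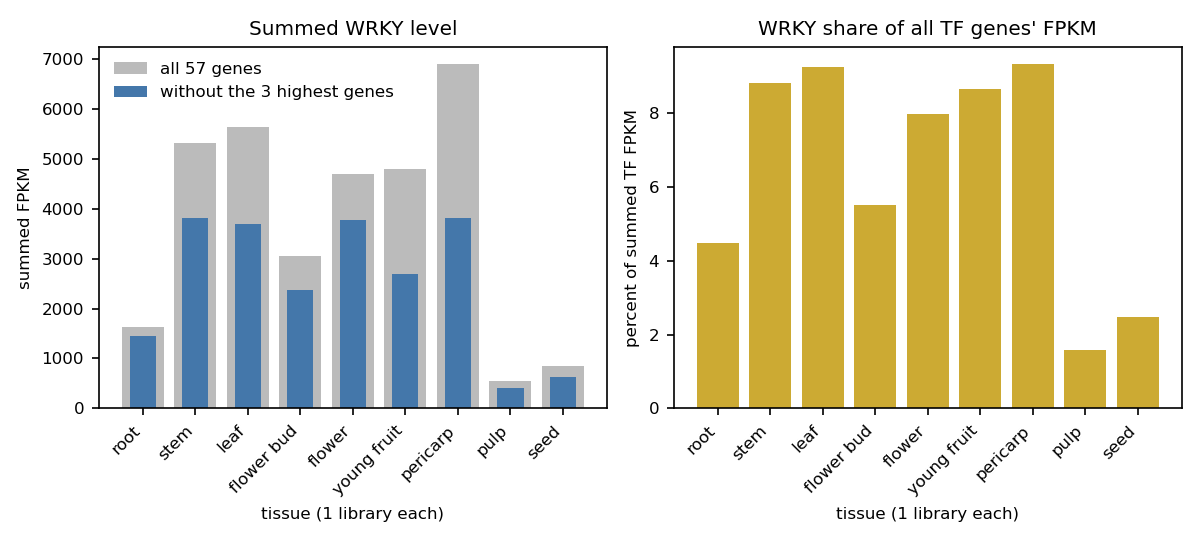
Summed FPKM of the 57 WRKY genes in each tissue (left, grey bars, with the sum without the 3 highest genes in blue) and the share of the FPKM of all transcription factor (TF) genes that they make up (right, percent), 1 library per tissue and no error bars. Pericarp has the tallest bar at 6892 FPKM and pulp the lowest at 543 FPKM.

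The sum was carried by a few genes. The 5 highest WRKY genes of each tissue held between 35.5% (root) and 64.1% (pericarp) of it. The 3 genes with the largest total were Dlo_001658.1, Dlo_009865.1 and Dlo_015501.2. Without them the sums were 3822 FPKM in pericarp, 3803 in stem, 3764 in flower, 3697 in leaf, 2684 in young fruit and 2373 in flower bud, so the order among the upper tissues rested on these genes. The lower end kept its order, with 1443 FPKM in root, 636 in seed and 407 in pulp, and pericarp was then 9.39 times pulp.

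Counted gene by gene, pulp and seed were again the lowest tissues, but root was not set apart from the rest. At least 1 FPKM was reached by 47 of the 57 genes in stem and in flower bud, 44 in pericarp, 43 each in root, flower and young fruit, and 42 in leaf. In seed 36 genes reached it and in pulp 25. The pulp share was 43.9% of the family, against 50.1% of all genes and 46.8% of the other transcription factor genes. In the other 8 tissues the WRKY share was above that of all genes. It was 82.5% against 60.1% in stem, 82.5% against 60.8% in flower bud and 77.2% against 58.6% in pericarp. For root, flower and young fruit it was 75.4%, against 61.6%, 58.0% and 62.6% of all genes, and for leaf 73.7% against 55.9%. In seed it was 63.2%, against 58.9% of all genes and 62.5% of the other transcription factor genes. The median level of the family was 22.2 FPKM in stem, between 15.3 and 19.0 FPKM in the 6 tissues from root to pericarp other than stem, 4.59 FPKM in seed and 0.42 FPKM in pulp.

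**Figure D2:**
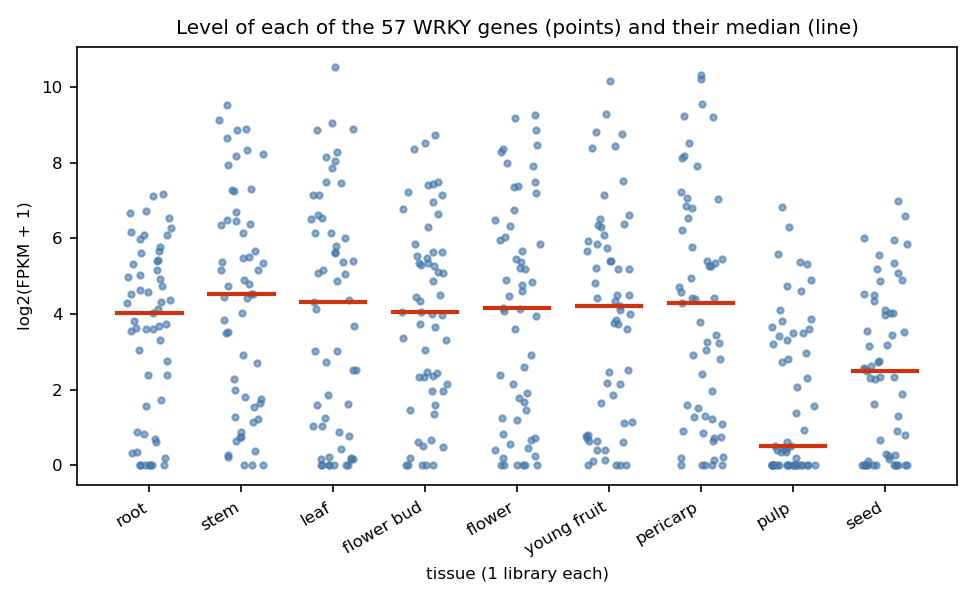
Level of each of the 57 WRKY genes in each tissue as log2(FPKM + 1), with the family median as a line, 1 library per tissue. The points of pulp and seed sit lower than those of the other tissues, with medians of 0.42 and 4.59 FPKM.

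Most WRKY genes were found in many tissues. Of the 57 genes, 53 reached 1 FPKM somewhere, and 24 of these 53 (45.3%) were at 1 FPKM or more in all 9 tissues, against 51.0% of the 23661 genes that reached 1 FPKM and 45% of the other transcription factor genes that did. Restriction to few tissues was measured with tau, which is 0 for an even profile and 1 for a gene found in a single tissue. A tau of 0.9 or more was found for 3 of the 53 genes (5.66%, against 9.02% of all genes and 10.9% of other transcription factor genes). The span between the highest and the lowest tissue had a median of 4.56 on the log2(FPKM + 1) scale for WRKY genes. It was 3.15 for other transcription factor genes and 2.35 for all genes. For the ERF family of transcription factors it was 4.07. The lists differed in level, which bounds this span. The median highest level was 62.55 FPKM for WRKY, 63.1 for ERF, 35.9 for other transcription factor genes and 25.2 for all genes.

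Without pulp, a setting added after the data were seen, the median span was 3.77 for WRKY genes, 2.80 for other transcription factor genes and 2.11 for all genes. Pulp was lower than every other tissue for 27 of the 53 genes (50.9%), against 25.6% of all genes and 29.2% of other transcription factor genes. With ties included the contrast was smaller, at 33 genes (62.3%) against 43.2% and 52.6%. Pulp and seed were the 2 lowest tissues for 20 genes (37.7%), against 9.15% of all genes and 12.2% of other transcription factor genes. A value of 0 in pulp was listed for 17 of the 53 genes, or 32.1%, against 23.1% of all genes. A listed 0 is not proof of absence. Of the 20 WRKY genes that reached 100 FPKM in some tissue, 8 were under 5 FPKM in pulp. The same share was not taken over all genes, so this count is a description only.

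By the tissue of highest level, 11 of the 53 genes peaked in leaf (20.8%, against 14.0% of all genes), 10 in root (18.9% against 17.3%), 9 in stem (17.0% against 6.52%), 8 in flower (15.1% against 6.64%) and 8 in pericarp (15.1% against 8.45%). Flower bud and young fruit had 3 each (5.66%, against 9.26% and 15.1%), pulp had 1 (1.89% against 11.6%) and seed had none (against 11.2%). Peaks in pulp and seed were also few in the NAC family of transcription factors (1.33% and 2.67%) and in ERF genes (5% and 3%). In stem and pericarp peaked 16% and 23% of ERF genes and 9.33% and 20% of NAC genes. Dividing each library by its median ratio to the other libraries, which ranged from -0.25 (pulp and flower) to 0.27 (young fruit) on the log2 scale, moved the peak of 5 of the 53 genes. Genes below that are named only as examples of their peak tissue were picked after their values were seen.

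**Figure D3:**
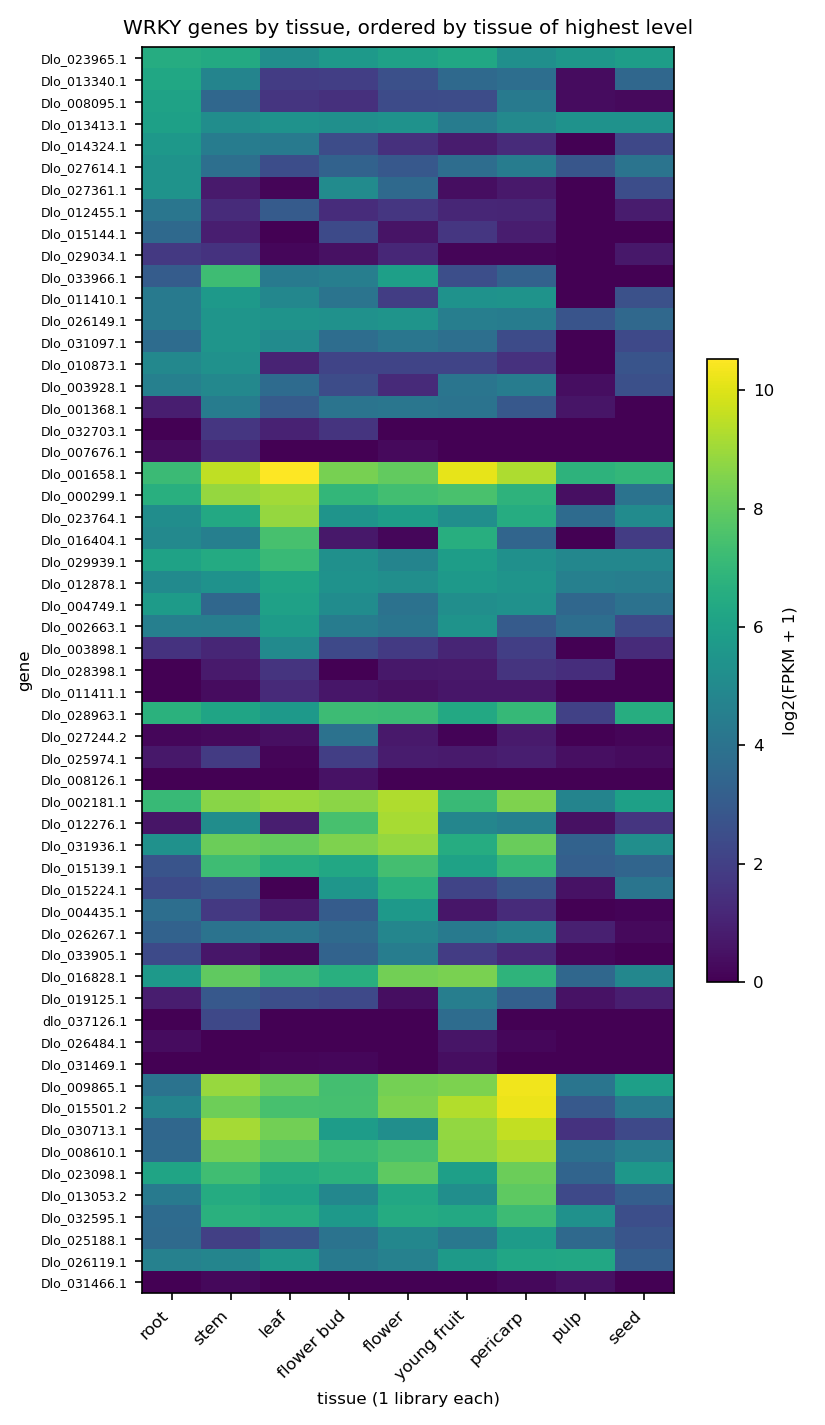
Level of each of the 57 WRKY genes (rows, ordered by tissue of highest level and then by that level) in the 9 tissues (columns, 1 library each), as log2(FPKM + 1) on a colour scale. The pulp column is dark for most genes, and 25 of the 57 reach 1 FPKM in it.

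The leaf group held the WRKY gene with the highest level of all, Dlo_001658.1. It had 1487 FPKM in leaf, 1141 in young fruit, 736 in stem, 601 in pericarp, 331.5 in flower bud, 256 in flower, 143 in root, 126 in seed and 113 in pulp. It was the only member over 100 FPKM in pulp and in seed, and it was the highest member in root, stem, leaf, young fruit, pulp and seed. Dlo_000299.1 also peaked in leaf, with 534 FPKM there, 468 in stem, 182 in young fruit, 164 in flower, 124 in flower bud, 112 in pericarp, 100.4 in root and 15.2 in seed, but it had 0.35 FPKM in pulp. The fall from over 100 FPKM in 7 tissues to under 1 FPKM in pulp was therefore not shared by Dlo_001658.1.

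Dlo_016404.1 had a profile of vegetative and fruit tissues. It had 178 FPKM in leaf, 96.8 in young fruit, 30.4 in root, 22.2 in stem and 9.80 in pericarp, against 2.67 in seed, 0.59 in flower bud, 0.14 in flower and 0 in pulp. Dlo_023764.1, with 465 FPKM in leaf, and Dlo_003898.1, with 32.3 FPKM, stood 5.05 and 7.99 times above their next tissue, pericarp (92.1 FPKM) and flower bud (4.04 FPKM). The remaining leaf genes peaked between 1.37 FPKM (Dlo_011411.1) and 141 FPKM (Dlo_029939.1).

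The pericarp group held the other 2 of the 3 genes with the largest total. Dlo_009865.1 had 1275 FPKM in pericarp, 477 in stem, 346 in young fruit, 326 in flower, 284 in leaf and 168.5 in flower bud, against 61.2 in seed, 16.1 in pulp and 15.3 in root. Dlo_015501.2 had 1193 FPKM in pericarp, 632 in young fruit, 352 in flower, 298.8 in stem, 174 in leaf and 171 in flower bud, against 25.7 in root, 19.2 in seed and 6.79 in pulp. Both were low in root as well as in pulp and seed.

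Dlo_030713.1 gave the largest difference in its direction in 6 of the 12 tissue pairs compared below. It had 758 FPKM in pericarp, 559 in stem, 450.4 in young fruit and 313 in leaf, then 56.5 in flower bud and 36.4 in flower, and 10.6 in root, 4.06 in seed and 1.95 in pulp. Its difference in pericarp VS pulp (pulp minus pericarp) was -8.01 on the log2(FPKM + 1) scale. Between its highest and lowest tissue it spanned 8.01 on this scale, less than Dlo_012276.1 (8.71) and Dlo_000299.1 (8.63). Dlo_013053.2 peaked at 239.0 FPKM in pericarp, 2.71 times its next tissue, stem (88.1 FPKM), with 35.8 FPKM in young fruit and 3.99 in pulp. The other 4 genes of the group peaked between 54.1 and 591 FPKM.

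The flower group differed in what else was high, and flower bud was the next tissue for only some of its genes. Dlo_002181.1 had 616 FPKM in flower, 475 in leaf, 422 in flower bud, 405 in stem and 364 in pericarp. It had 142 FPKM in young fruit, 138 in root, 63.3 in seed and 25.9 in pulp. Dlo_031936.1 ran beside it with 466 FPKM in flower, 366 in flower bud, 287 in stem, 279.5 in pericarp, 265 in leaf, 90.0 in young fruit, 39.2 in root, 35.8 in seed and 8.99 in pulp. Over the 9 tissues their log2(FPKM + 1) values had the highest Pearson's r of any pair in the family, 0.98. Both were thus broad genes with a maximum in flower.

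Dlo_012276.1 was more confined to the flower. It had 578 FPKM in flower and 178 in flower bud, against 34.6 in stem, 27.5 in young fruit, 23.0 in pericarp, 2.08 in seed, 0.83 in leaf, 0.52 in root and 0.38 in pulp. Dlo_015224.1 (106 FPKM) and Dlo_033905.1 (21.1 FPKM) also had flower as their highest and flower bud as their next tissue, at 2.33 and 2.29 times the next value.

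Dlo_004435.1 is annotated as WRKY transcription factor 33 in the study's list of genes with variants in 2 cultivars. Names of other members were not searched for. In Arabidopsis, WRKY33 is a target of immune MAP kinases and is needed for resistance to necrotrophic fungi. Dlo_004435.1 had 50.1 FPKM in flower, 13.0 in root, 7.28 in flower bud, 2.36 in stem and 1.43 in pericarp. In the other tissues it was under 1 FPKM, with 0.71 in leaf, 0.57 in young fruit, 0.08 in seed and 0 in pulp. Its value in flower was 3.85 times that in root, its next tissue.

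The root group peaked at lower levels, between 2.32 and 92.0 FPKM. Dlo_027361.1 was at 41.4 FPKM in root and 32.8 in flower bud, then 11.2 in flower and 4.59 in seed, and between 0 and 0.68 in stem, leaf, young fruit, pericarp and pulp. Dlo_008095.1 (67.0 FPKM) and Dlo_013340.1 (77.1 FPKM) stood 3.62 and 2.97 times above their next tissue. In 6 of the 10 root genes the value in root was at least 2 times the next value. The same held in their own peak tissue for 4 of 8 flower, 3 of 11 leaf, 2 of 9 stem and 2 of 8 pericarp genes. It also held for 2 of 3 young fruit genes and 1 of 3 flower bud genes. The same share was not taken over all genes, so these counts are descriptions only.

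The stem group had Dlo_033966.1 at the top, with 152 FPKM in stem, 61.2 in flower and 0 in pulp and seed. Dlo_010873.1 had 39.8 FPKM in stem and 29.3 in root, against 1.05 to 5.61 FPKM in leaf, flower bud, flower, young fruit, pericarp and seed, and 0 in pulp. Of the 9 stem genes, 8 had pulp as their lowest tissue, ties included. Among genes that reached 1 FPKM in some tissue, this was so for 62.3% of WRKY genes and 43.2% of all genes. Those sets include genes that peak in pulp, which the stem group cannot. The share among all genes that peak in stem was not taken.

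Restriction to few tissues was seen for 3 genes. Dlo_027244.2 had 14.6 FPKM in flower bud and at most 0.68 FPKM (pericarp) elsewhere, which is 21.5 times its next value. The gene dlo_037126.1 had 12.4 FPKM in young fruit and 3.87 in stem and was listed at 0 in the other 7 tissues. Dlo_007676.1 had 1.34 FPKM in stem, 0.24 in root and 0.19 in flower, and was listed at 0 in the rest.

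At the other end, 3 genes had the flattest profiles among the 47 genes that reached 5 FPKM. Dlo_023965.1 (tau 0.12) ranged from 35.0 FPKM in leaf to 92.0 FPKM in root, with 46.8 FPKM in pulp and 57.1 in seed. Dlo_013413.1 (tau 0.14) ranged from 20.4 FPKM in young fruit to 62.55 FPKM in root, with 40.5 FPKM in pulp and 40.1 in seed. Dlo_012878.1 (tau 0.16) had its lowest value, 21.9 FPKM, in seed and its highest, 69.8 FPKM, in leaf, with 23.3 FPKM in pulp. Among the 53 genes that reached 1 FPKM, Dlo_026119.1 was the one that peaked in pulp. It had 78.5 FPKM there, against 73.5 in pericarp, 52.4 in young fruit, 47.9 in leaf, 26.9 in stem, 23.8 in root, 23.5 in flower, 19.4 in flower bud and 7.94 in seed. Low levels in pulp were therefore not a property of every WRKY gene.

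**Figure D4:**
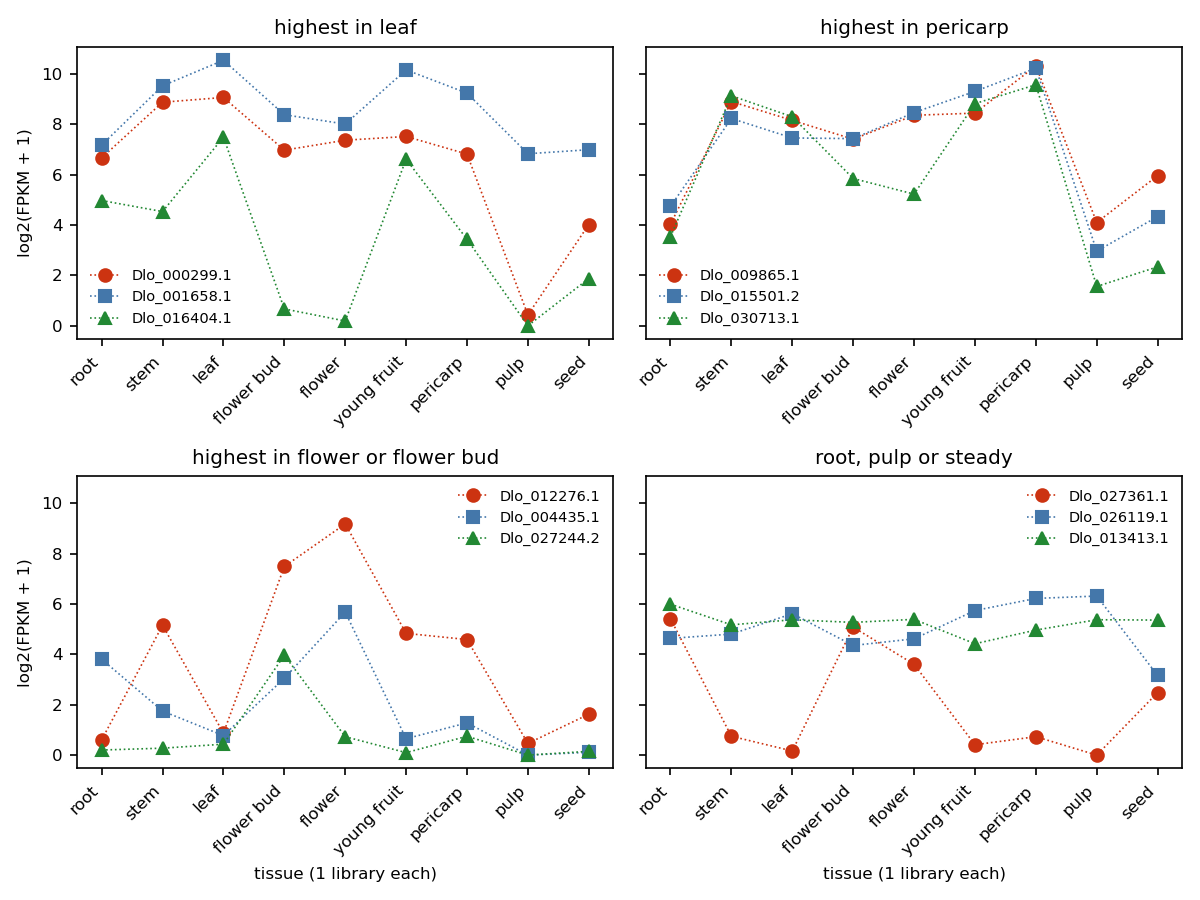
Levels of 12 WRKY genes in the 9 tissues (1 library each) as log2(FPKM + 1), in panels by where they were highest. Dlo_030713.1 drops from 758 FPKM in pericarp to 1.95 FPKM in pulp, while Dlo_013413.1 and Dlo_026119.1 have lowest values of 20.4 FPKM and 7.94 FPKM. Dotted lines only join the points of a gene.

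The study compared tissues in pairs, along the plant body, through flowering and fruit set, and between parts of the fruit. It names 11 pairs, and young fruit VS pericarp was added here to complete 12. A gene was counted as higher in a tissue when FPKM + 1 was at least 2 times that of the other tissue, and the background is the share of the 28598 genes above 0 FPKM somewhere that passed the same limit. Pairs that share a tissue share its library, so their counts are not independent.

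Among vegetative organs, WRKY genes were more often higher in the shoot. In root VS stem, 24 of 57 genes (42.1%, background 12.6%) were higher in stem and 11 (19.3%, background 15.7%) in root. In root VS leaf, 26 genes (45.6%, background 15.4%) were higher in leaf and 14 (24.6%, background 21.1%) in root. The largest differences were those of Dlo_030713.1, higher in stem by 5.59 and in leaf by 4.76 on the log2(FPKM + 1) scale, and of Dlo_027361.1, lower in stem and leaf at -4.66 and -5.24, or -3.03 and -3.18 with a pseudocount of 5 FPKM. The ERF family, another group of transcription factors, was close to WRKY in root VS stem, with 40.2% of its genes higher in stem and a sum 3.98 times that in root, against 3.27 times for WRKY. In root VS leaf, 29.5% of ERF genes were higher in leaf. The leaf sum was 3.47 times the root sum for WRKY, 3.06 times for ERF and 3.48 times for the immune signalling genes described below. In leaf VS stem, 14 genes (24.6%, background 14.4%) were higher in stem, led by Dlo_010873.1 at 4.31, and 7 (12.3%, background 9.30%) in leaf, led by Dlo_003898.1 with 32.3 FPKM against 1.19 FPKM.

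In flower bud VS flower, 11 of 57 genes (19.3%, background 6.45%) were higher in flower and 9 (15.8%, background 9.68%) higher in flower bud. In all, 35.1% of the WRKY genes differed, against 16.1% of all genes. The largest differences were 2.63 for Dlo_004435.1, the gene annotated as WRKY33, towards flower, and -3.23 for Dlo_027244.2 towards flower bud. With median-ratio scaling the counts were 15 in flower (background 8.24%) and 8 in flower bud (background 8.12%). At a limit of 4-fold, 1 gene was higher in flower (background 1.93%) and 2 in flower bud (background 2.59%).

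From the flower to the young fruit, similar numbers of genes were higher on each side. In flower VS young fruit, 14 genes (24.6%, background 24.6%) were higher in young fruit and 12 (21.1%, background 10.9%) in flower. In flower bud VS young fruit, 14 genes (24.6%, background 20.5%) were higher in young fruit and 13 (22.8%, background 12.7%) in flower bud. These splits depended on scaling, which also changed the background. In the first pair it gave 7 genes higher in young fruit (background 15.8%) and 17 in flower (background 15.1%). In the second it gave 12 in young fruit (background 15.6%) and 17 in flower bud (background 15.0%). Dlo_016404.1 went from 0.59 FPKM in flower bud and 0.14 FPKM in flower to 96.8 FPKM in young fruit. Dlo_004435.1 was at 50.1 FPKM in flower and 0.57 FPKM in young fruit, a difference of -5.03. Dlo_027361.1 was at 32.8 FPKM in flower bud and 0.33 FPKM in young fruit.

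The parts of the fruit differed most in one direction. In young fruit VS pulp, 37 of 57 genes (64.9%, background 30.4%) were higher in young fruit and 0 in pulp (background 9.14%). In pericarp VS pulp, 37 genes (64.9%, background 24.9%) were higher in pericarp and again 0 in pulp (background 10.8%). Among the other transcription factor genes above 0 somewhere, 38.1% were higher in young fruit than in pulp and 36.1% higher in pericarp than in pulp. For ERF genes these shares were 45.5% and 52.7%, for NAC genes 39.8% and 45.9%, and for the immune signalling genes 50% and 36.2%. Higher in pulp were 9.82% and 5.36% of ERF genes, 5.1% and 2.04% of NAC genes, and 3.45% and 5.17% of the immune signalling genes. The median difference of the WRKY genes was -1.69 in young fruit VS pulp and -1.91 in pericarp VS pulp on the log2(FPKM + 1) scale. It was -0.28 and -0.08 over all genes, and -0.80 and -1.13 over ERF genes. The highest values towards pulp were 0.95 for Dlo_013413.1 against young fruit and 0.77 for Dlo_002663.1 against pericarp, both under the limit, although Dlo_013413.1 passed it with median-ratio scaling (1.45). With median-ratio scaling, 34 genes were higher in young fruit (background 23.4%) and 2 in pulp (background 13.7%). Against pericarp, 36 were higher in pericarp (background 21.3%) and 1 in pulp (background 14.0%).

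The median of the highest level of a gene was 62.55 FPKM for WRKY genes and 25.2 FPKM for all genes that reached 1 FPKM, so the same count was made among genes that reached 5 FPKM. There, 37 of 47 WRKY genes were higher in young fruit than in pulp, against 39.9% of 19094 genes, and 37 were higher in pericarp than in pulp, against 33.8%. None was higher in pulp, against 11.6% and 13.6% of these genes. At a limit of 4-fold, 26 of 57 genes (background 14.5%) were higher in young fruit than in pulp and 27 (background 12.2%) higher in pericarp than in pulp, with 0 higher in pulp (background 3.56% and 4.06%).

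Seed resembled pulp in this. In young fruit VS seed, 30 genes (52.6%, background 20.3%) were higher in young fruit and 3 (5.26%, background 11.6%) in seed. In pericarp VS seed, 29 genes (50.9%, background 15.3%) were higher in pericarp and 3 (5.26%, background 13.1%) in seed. The largest difference towards seed was that of Dlo_027361.1, which had 4.59 FPKM in seed, 0.66 in pericarp and 0.33 in young fruit. With a pseudocount of 5 FPKM it fell under the limit in both pairs (0.85 against young fruit and 0.76 against pericarp). The ERF family was close to WRKY here too, with 45.5% of its genes higher in young fruit than in seed and 49.1% higher in pericarp than in seed. For NAC genes these shares were 35.7% and 29.6%. The largest towards the other side was that of Dlo_030713.1, at -6.48 and -7.23.

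Pulp and seed also differed from each other. In pulp VS seed, 21 genes (36.8%, background 22.7%) were higher in seed and 4 (7.02%, background 9.95%) in pulp. Dlo_028963.1, a gene with 49.3 to 149 FPKM in the 7 tissues other than pulp and seed, had 94.8 FPKM in seed and 3.16 FPKM in pulp, a difference of 4.53. Dlo_026119.1 had 78.5 FPKM in pulp and 7.94 FPKM in seed, a difference of -3.15. Young fruit and pericarp were the fruit tissues most alike, with 8 genes (14.0%, background 14.5%) higher in young fruit and 8 (14.0%, background 7.68%) in pericarp. With median-ratio scaling the counts were 6 (background 11.2%) and 11 (background 9.03%). Dlo_013053.2 was higher in pericarp by 2.70 and dlo_037126.1 in young fruit, with 12.4 FPKM against 0 listed in pericarp.

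**Figure D5:**
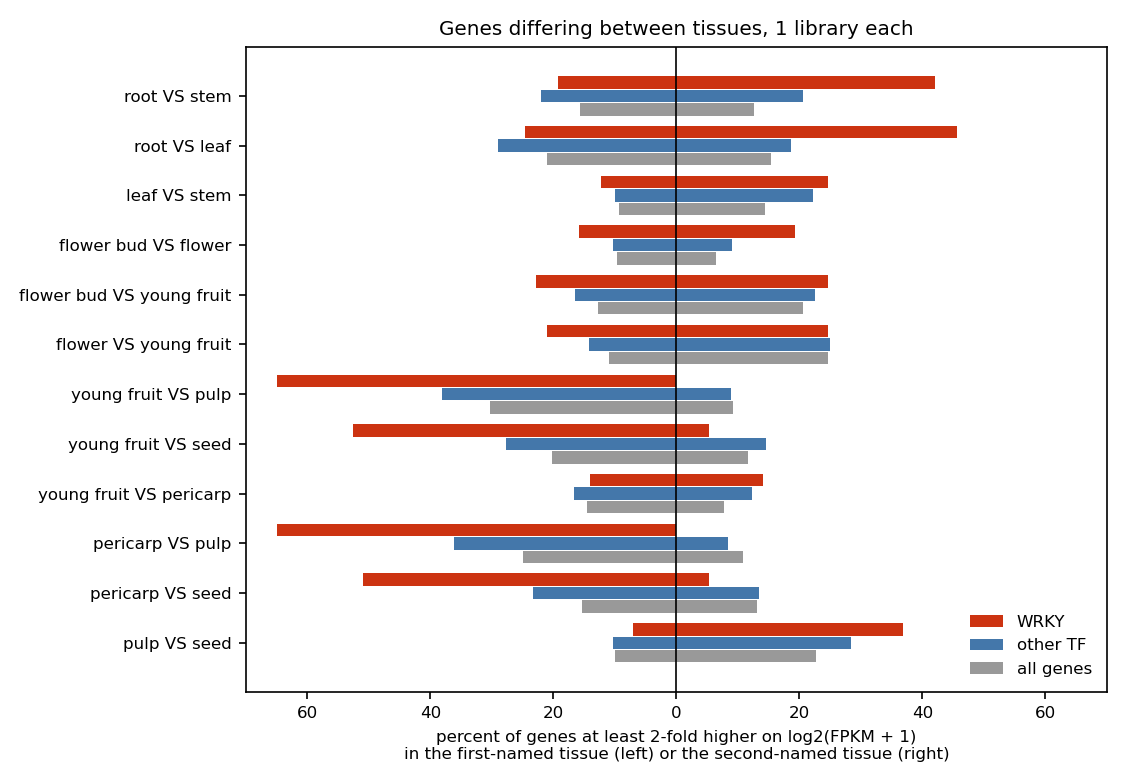
Percent of genes at least 2-fold higher on the log2(FPKM + 1) scale in the first-named (left) or second-named (right) tissue of each of 12 pairs, for WRKY genes (57), other transcription factor (TF) genes and all genes, 1 library per tissue. In young fruit VS pulp and pericarp VS pulp the WRKY bars reach 64.9% on the left and 0 on the right.

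Members tended to vary together. Over the 1378 pairs of the 53 genes that reached 1 FPKM, the median Pearson's r of log2(FPKM + 1) over the 9 tissues was 0.32, against 0.07 over pairs of other transcription factor genes. It was 0.9 or more for 25 pairs (1.81%, against 0.496%) and below 0 for 291 (21.1%, against 44.0%). The other genes are a mix of many families, and r was not computed within another single family such as NAC or ERF. Whether WRKY genes differ in this from other families was therefore not tested. These are descriptions over 9 tissues whose values share the same libraries, and pulp, low for most members, contributes to each of them. Dlo_008610.1, Dlo_009865.1, Dlo_015501.2 and Dlo_030713.1, all highest in pericarp, were linked by r of 0.91 to 0.97 in 5 of their 6 pairs.

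The lists set beside the WRKY genes were the NAC and ERF transcription factors, 2 families with known roles in stress and development, and a part of the immune signalling genes. The 103 NAC genes summed to 2.64 times as much in pericarp as in pulp and to 1.70 times as much as in seed, and the 114 ERF genes to 2.40 and 4.35 times as much. Pulp was lower than every other tissue for 33.3% of the NAC genes that reached 1 FPKM and for 16.0% of such ERF genes, beside 50.9% of WRKY genes. With ties included the order of NAC and WRKY turned round, at 69.3% of NAC, 62.3% of WRKY and 45% of ERF genes. The immune list had 60 genes in the table, among them homologues of the flagellin receptor FLS2, its partner BAK1, the kinase PBS1 and the resistance proteins RPM1 and RPS2. It was taken from the study's annotation of genes with variants in 2 cultivars and is only a part of such genes. At 1 FPKM or more were 34 of the 60 genes in young fruit, 28 in pericarp, 22 in seed and 16 in pulp. Its summed FPKM in pericarp was 0.987 times that in pulp, where the 5 highest genes held 93.7% of it. Without its 3 highest genes the list summed to 245 FPKM in pericarp and 46.5 FPKM in pulp.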

How the data were processed

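RNA of 9 tissues was sequenced with Illumina protocols, 1 library per tissue. The labels give the molecule as total RNA, and how messenger RNA was selected is not given in the sources used here. The authors removed adaptor, low-quality, organelle and ribosomal reads and aligned the rest to the longan draft genome with TopHat2 2.0.10. That genome is of another cultivar, “HHZ”. The study reports a lower share of mapped reads than was found in peach, and proposes high variation between the 2 cultivars as the reason. Its part in the values of single genes was not tested. They deposited FPKM values with 2 decimals, and the tool that computed them is not given in the sources used here. Reads of near-identical family members could be divided or lost in this step. All 9 value columns were used.

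The WRKY identifiers come from the study's supplementary list. They, the other lists and the rules were chosen with earlier results of these data known. FPKM was used as deposited. Differences are log2 of FPKM + 1, with a limit of 2-fold. This scale understates the change of low genes. Tau was computed on the same scale. Without counts or replicates no interval, count model or p-value is given. Median-ratio scaling used 12039 genes above 1 FPKM in all tissues.

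Named genes were the 2 highest in each tissue, the largest difference each way in each pair, those with tau of 0.9 or more, the 3 flattest, the gene annotated as WRKY33, the pair with the highest r, those not in the table and those with near identifiers. The calculations were tested on simulated data. Python 3.11.15, numpy 2.4.6, pandas 2.3.3 and matplotlib 3.10.9 were used.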

Additional observations from a re-analysis of the deposited data

How the results depend on the processing

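With 1 library per tissue, neither a test nor a replicate left out was possible. No paired analysis was possible because there is a single library for every tissue. Values were taken as kept when within 1.5 times. The causes of the shifts with a pseudocount were not tested. The numbers of genes detected in each tissue, found in every tissue and highest in each tissue kept within that range under every alternative set for them. The numbers of genes differing in each pair did so among genes reaching 5 FPKM, with median-ratio scaling and with a pseudocount of 0.1 FPKM. The limit of 4-fold is stricter by construction. In pulp VS seed 13 of the 57 genes passed it (background 13.5%), and in pericarp VS seed 21 (background 12.6%). Young fruit VS pericarp had 5 (6.79%), flower VS young fruit 15 (13.4%) and flower bud VS young fruit 10 (13.3%). Flower bud VS flower had 3 (4.52%), leaf VS stem 10 (8.64%), root VS stem 22 (12.5%) and root VS leaf 22 (18.0%). With a pseudocount of 5 FPKM, flower bud VS flower had 12 genes (background 7.84%) and pulp VS seed 16 (background 18.9%). Genes with a tau of 0.9 or more fell from 3 to 1 with a pseudocount of 0.1 FPKM. Without the 3 highest genes the summed level was 3697 FPKM in leaf, 2684 in young fruit and 3822 in pericarp. Of the 24 largest differences of single genes, 9 moved by over 1.5 times with a pseudocount of 5 FPKM, 2 with 0.1 FPKM and 1 with median-ratio scaling. A change of pseudocount cannot change the sign of a difference. Values of single genes in single tissues rest on 1 library, and low values on few fragments.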

Other observations

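By the WRKY genes alone, flower bud and flower were the most alike of the 36 pairs of tissues (Pearson's r of log2(FPKM + 1) over the 57 genes, 0.94), followed by young fruit and pericarp (0.93), stem and young fruit (0.90) and stem and pericarp (0.89). Root and pulp were the least alike (0.55). The median over the 36 pairs was 0.76, the same as over the other transcription factor genes. Root and seed stood at rank 15 of 36 by their WRKY genes (0.78) and at rank 29 by the other transcription factor genes (0.70). These are values across genes, which are not independent replicates.

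Some WRKY genes have identifiers that differ by 5 or less, and whether they lie side by side in the genome was not analysed here. Dlo_011410.1 and Dlo_011411.1 differed in level, with 50.1 FPKM and 0.29 FPKM in stem and 41.5 FPKM and 0.57 FPKM in pericarp. Dlo_015139.1 had 5.72 FPKM in root and 8.17 to 167 FPKM elsewhere, while Dlo_015144.1 had its highest value, 11.1 FPKM, in root and was listed at 0 in leaf, pulp and seed. Dlo_031466.1 and Dlo_031469.1 stayed under 1 FPKM everywhere, with highest values of 0.37 FPKM in pulp and 0.32 FPKM in young fruit. Dlo_027246.1, the member not in the table, differs by 2 from the flower bud gene Dlo_027244.2.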
